A study of Mus musculus with 6 samples.

Results

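The genes examined here are 41 genes of the endoplasmic reticulum (ER) machinery, comprising ER chaperones, disulfide enzymes, stress sensors and components of ER-associated degradation, and were chosen by gene symbol from the 23284 genes of the count tables. All 41 had enough counts to be tested. They were measured by bulk RNA-seq in pancreatic islets isolated from 12-week-old mice. The knockout group was Neurod1-floxed/floxed; Rip-Cre+ and had 3 libraries, numbered 4, 5 and 6. The control group was Neurod1-floxed/floxed without Cre and had 3 libraries, numbered 7, 10 and 16. Both groups carried the floxed Neurod1 alleles, and the labels give C56BL/J as the strain of both. Neurod1 is a transcription factor that endocrine cells need for their development and function, and Rip-Cre expresses Cre recombinase from the rat insulin promoter, which is active in beta cells. Because Cre was absent from all controls, effects of the transgene and of losing Neurod1 cannot be told apart. Whether the libraries are from different animals is not stated in the labels, and the p-values therefore reflect the spread between these libraries, which may be technical.

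A beta cell makes large amounts of proinsulin, which enters the ER, forms disulfide bonds and folds there with the help of chaperones. Unfolded protein in the ER activates the sensors Ire1 (gene Ern1), Perk (gene Eif2ak3) and Atf6. Ire1 splices the Xbp1 mRNA, Perk phosphorylates eIF2α and so lowers translation while favouring Atf4, and Atf6 is cleaved to a transcription factor. Xbp1 and Atf6 act on chaperone and degradation genes, often through a promoter element named ERSE. Atf4 acts on amino acid and redox genes, among others. Gene counts measure mRNA only. They do not show Xbp1 splicing, phosphorylation, cleavage or protein.

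Total counts per library were between 12206393 and 16473159 in the knockout group and between 14424767 and 20412435 in the control group. Values below are counts per 1000000 counts (CPM) with library sizes scaled by TMM factors. The targeted gene Neurod1 had 28.4, 29.8 and 31.3 CPM in the knockout libraries, against 198, 177 and 141 CPM in the control libraries (log2 fold change -2.53, SE 0.13, adjusted p = 1.74e-05). The 8 islet endocrine markers made up 17.6% to 19.8% of all counts for the knockout group and 22.4% to 26.2% for the control group. Ins1, a near copy of Ins2 whose reads may be shared with it, fell to 4307 ± 1529 CPM in knockout libraries, against 48668 ± 3300.0 CPM in control libraries (SD, n = 3 each, log2 fold change -3.50, adjusted p = 1.27e-04). Ins2 did not pass (log2 fold change 0.03), Chgb rose (0.82, adjusted p = 0.0053), and the other 5 endocrine markers did not pass. Acinar RNA differed between libraries. The 28 acinar markers took 0.549%, 1.62% and 1.20% of all counts in knockout libraries 4, 5 and 6, against 5.56%, 4.69% and 1.57% in control libraries 7, 10 and 16. Over all 14770 genes tested, 11.8% rose and 12.6% fell, to be read beside the marker counts here. Of the 28 acinar markers, 2 fell and 26 did not pass the test, with a median log2 fold change of -1.85. None was at 0, and the lowest, the acinar factor Ptf1a, had 0.123 to 0.402 CPM in knockout libraries and 1.10 to 2.17 CPM in control libraries. The 12 endothelial markers made up 0.0729% to 0.0836% in knockout libraries and 0.111% to 0.114% in control libraries, and 10 of the 12 fell. The 10 stromal markers made up 0.0545% to 0.0707% for the knockout group and 0.0757% to 0.106% for the control group, and 3 fell. Of 10 duct markers 2 rose and 5 fell, with sums of 0.0642% to 0.0671% in knockout libraries and 0.0589% to 0.0707% in control libraries. For the 11 leukocyte markers the range was 0.0170% to 0.0519% in knockout libraries and 0.0134% to 0.0261% in control libraries. Plasma cells have an extensive ER. Their 6 markers with values made up 0.00600% to 0.0221% in knockout libraries and 0.00372% to 0.00969% in control libraries. Igj, the J chain of antibodies and the most abundant of them, had 45.3, 23.7 and 143 CPM in knockout libraries, against 42.9, 8.44 and 3.50 CPM in control libraries (adjusted p = 0.305). Tnfrsf17 was at most 0.321 CPM in any library. The part of these cells in the results below was not tested.

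Promoter sequences of the genes with an exact ERSE are shown first because this element was found in many of the members and in few other promoters. The members were chosen as genes of the kind on which Xbp1 and Atf6 often act through ERSE. Its excess among them was therefore to be foreseen from that choice and is not a result of these data. RefSeq promoters (GRCm38.p6, 250 bases before to 50 bases from the gene start) were present for 35 of the 41 members. An exact ERSE is CCAAT, 9 unspecified bases and CCACG on either strand. It was found in 10 of these 35 promoters (28.6%), against 39 of all 32851 promoters (0.119%). Of the 11599 tested genes with a promoter, members included, 20 had it. ERSE-II, which is ATTGG, 1 unspecified base and CCACG on either strand, was found in the promoters of Dnajb11 and Herpud1 and in 12 of all 32851 promoters (0.0365%). Each window below gives the element with 15 bases on each side, 5′ to 3′ on the strand of the gene, with the fixed letters of the element in capitals. An ERSE on the opposite strand reads CGTGG first and ATTGG last.
Calr (ERSE, chr8:84847060-84847108, minus strand): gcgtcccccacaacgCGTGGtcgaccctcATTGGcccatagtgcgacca
Canx (ERSE, chr11:50325785-50325833, minus strand): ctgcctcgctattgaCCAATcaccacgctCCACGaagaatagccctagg
Creld2 (ERSE, chr15:88819505-88819553, plus strand): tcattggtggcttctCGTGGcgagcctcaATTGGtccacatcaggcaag
Derl3 (ERSE, chr10:75893227-75893275, plus strand): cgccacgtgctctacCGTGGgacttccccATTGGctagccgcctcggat
Dnajc3 (ERSE, chr14:118937812-118937860, plus strand): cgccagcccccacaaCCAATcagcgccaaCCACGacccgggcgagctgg
Ero1lb (ERSE, chr13:12565667-12565715, plus strand): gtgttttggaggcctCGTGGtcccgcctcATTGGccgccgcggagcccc
Hsp90b1 near site (ERSE, chr10:86705518-86705566, minus strand): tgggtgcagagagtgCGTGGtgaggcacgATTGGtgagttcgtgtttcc
Hsp90b1 far site (ERSE, chr10:86705623-86705671, minus strand): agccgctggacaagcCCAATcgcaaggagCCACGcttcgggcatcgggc
Hspa5 (ERSE, chr2:34772010-34772058, plus strand): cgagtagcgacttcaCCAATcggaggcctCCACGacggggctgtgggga
Pdia6 (ERSE, chr12:17266476-17266524, plus strand): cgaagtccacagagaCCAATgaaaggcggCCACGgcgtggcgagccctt
Syvn1 (ERSE, chr19:6046517-6046565, plus strand): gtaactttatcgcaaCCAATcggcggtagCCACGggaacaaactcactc
Dnajb11 (ERSE-II, chr16:22857837-22857877, plus strand): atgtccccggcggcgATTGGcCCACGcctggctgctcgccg
Herpud1 (ERSE-II, chr8:94386362-94386402, plus strand): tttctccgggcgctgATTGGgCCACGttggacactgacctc

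The Ero1lb promoter is given in full as that of the member with the smallest p, and the Hspa5 promoter as that of the most used marker gene of the unfolded protein response. Capitals mark the exact ERSE.
Ero1lb promoter (chr13:12565633-12565932, plus strand): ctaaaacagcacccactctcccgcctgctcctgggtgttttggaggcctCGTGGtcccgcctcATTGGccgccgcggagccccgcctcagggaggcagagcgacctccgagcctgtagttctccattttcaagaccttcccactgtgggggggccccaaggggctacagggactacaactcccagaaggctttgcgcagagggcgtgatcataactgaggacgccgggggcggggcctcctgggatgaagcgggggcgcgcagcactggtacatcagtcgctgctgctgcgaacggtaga
Hspa5 promoter (chr2:34771840-34772139, plus strand): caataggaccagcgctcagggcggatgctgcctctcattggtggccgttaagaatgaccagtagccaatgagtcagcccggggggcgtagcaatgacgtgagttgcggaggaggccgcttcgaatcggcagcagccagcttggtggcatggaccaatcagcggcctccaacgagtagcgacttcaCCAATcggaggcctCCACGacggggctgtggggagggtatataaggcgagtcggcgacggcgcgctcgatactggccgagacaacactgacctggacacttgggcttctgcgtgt

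The exact ERSE of Hspa5 lay at bases -65 to -47 from the gene start, and that of Ero1lb at bases -201 to -183 in the opposite orientation. Inexact copies of the element were not searched for. Of the 10 members with an exact ERSE, 9 rose in knockout islets, and Derl3 did not pass the test. Of the other 31 members, 6 of which had no promoter in the table, 17 rose, and of all 11599 tested genes with a promoter 12.0% rose. The difference between members with an ERSE and the others was not tested. Outside the members, 10 tested genes had an exact ERSE, of which 1 rose (Alg12, a mannosyltransferase of glycan assembly, log2 fold change 0.37) and 1 fell (Acacb, an acetyl-CoA carboxylase, log2 fold change -0.78). Both were named after their values were seen. Acacb passed without each single library, and Alg12 did not pass without knockout library 4 or 5 (adjusted p = 0.127 and 0.0989) or without control library 10 or 16 (0.143 and 0.0828). The parts of the element taken singly were common: CCAAT was in 71.4% of the members' promoters and 37.4% of all promoters, and CCACG in 80.0% and 32.8%. All promoters include those of genes that were not tested here. Of the 11599 tested genes with a promoter, members included, 4903 had CCAAT and 5875 had CCACG. An ERSE match counts under both of these. The Xbp1 and Atf6 core TGACGTG was in 8.57% of the members' promoters and 2.01% of all promoters. The C/EBP-ATF element TGATGNAA, on which Atf4 acts, was in 5.71% of the members' promoters (Herpud1 and Txndc5) and 3.97% of all. CAGATG, an E-box of the kind bound by Neurod1, was in 14.3% of the members' promoters (5 of 35) and 17.2% of all. Of the 11599 tested genes with a promoter, 361 had TGACGTG, 339 had TGATGNAA and 1635 had CAGATG. A match is a description of letters and not of binding.

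**Figure D1:**
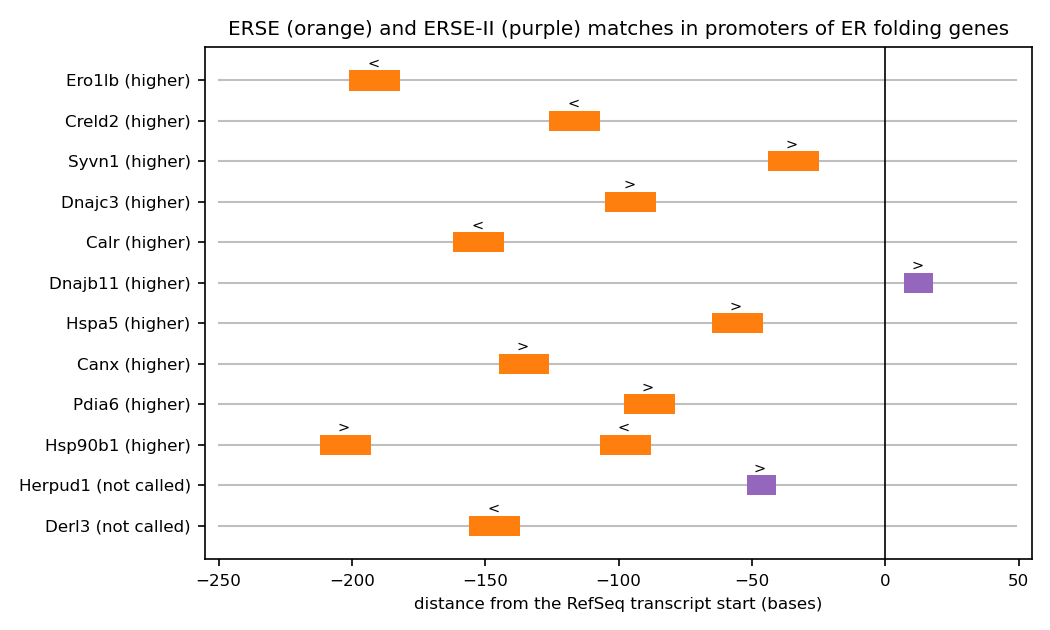
Position of exact ERSE (orange) and ERSE-II (purple) matches in the promoters of the members that have one, in bases from the gene start on the horizontal axis, with one row per gene. Arrowheads give the orientation relative to the gene. All ERSE matches lie before the start, and the ERSE-II of Dnajb11 lies after it, at bases 8 to 18.

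Most of the 41 genes were more abundant in knockout islets. By the quasi-likelihood test over all genes, 26 rose, 1 fell and 14 did not pass, whereas 11.8% of all 14770 genes tested rose and 12.6% fell. The median log2 fold change was 0.50 for the 41 genes and -0.01 for all genes tested. Among the 6072 genes with a mean level at or above that of the lowest member (29.4 CPM), 19.5% rose and 12.1% fell, with a median of 0.05. Every knockout library was above every control library for 26 of the 41 genes (20.0% of all genes tested) and below for 1 (22.0% of all genes). In bulk islets, fewer cells of a type and less RNA per cell cannot be told apart. Leaving out control library 10 left 17 that rose, and leaving out knockout library 6 gave 29. With the acinar marker level of each library as a covariate, 5 rose (Ero1lb, Edem2, Edem1, Dnajc10 and Calr) and the median was 0.40. That covariate itself differs between the groups, and in the same fit 848 of all genes rose and 701 fell.

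**Figure D2:**
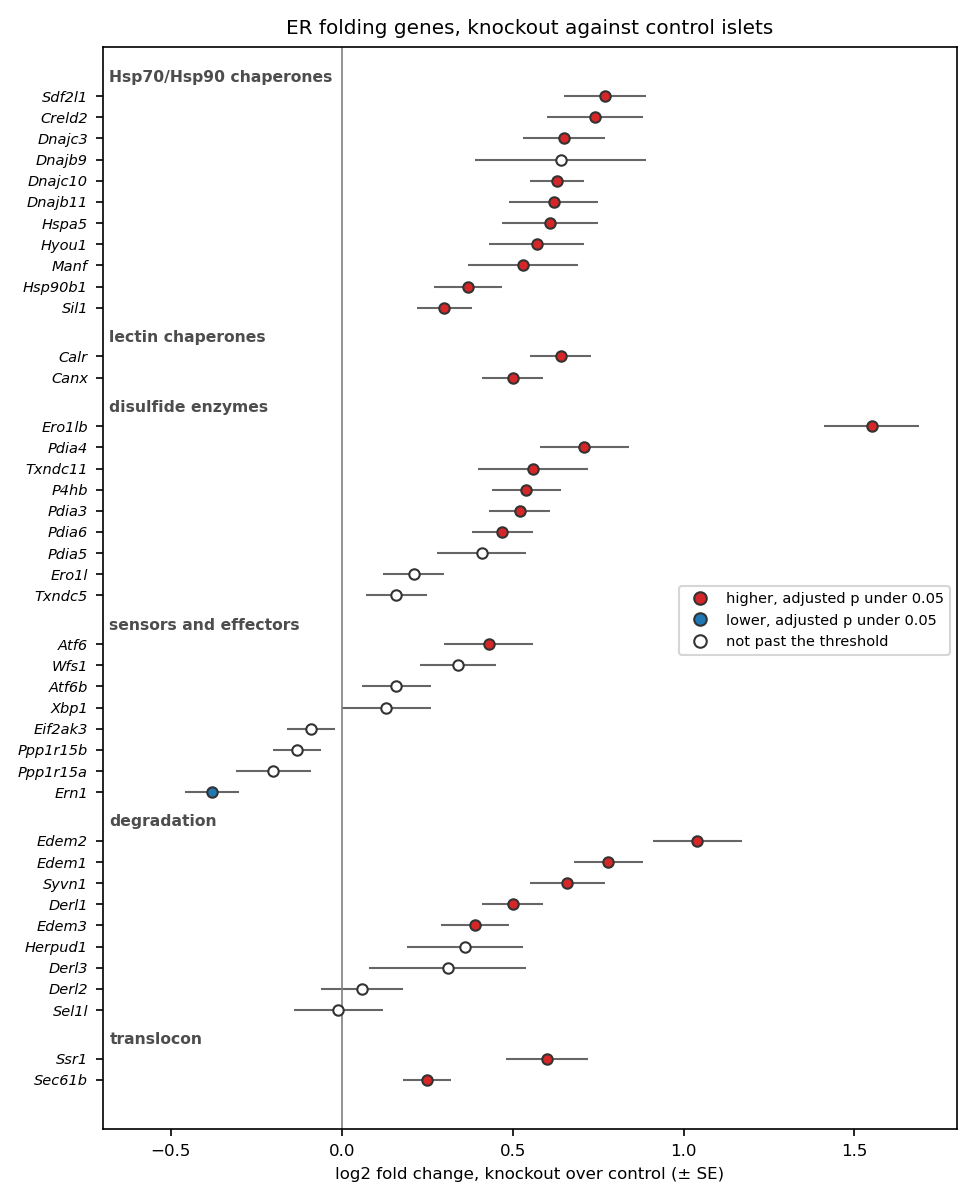
Log2 fold change of knockout over control for the 41 genes (horizontal axis), grouped by role, with the standard error of the fit as bars and the call by colour. Values run from -0.38 for Ern1 to 1.55 for Ero1lb, and all of the Hsp70 and Hsp90 group lie at or above 0.30.

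Nearly all of the 11 members grouped here as ER Hsp70 and Hsp90 chaperones, cofactors and stress-induced proteins rose. Of 11 genes 10 passed, all of them higher, with log2 fold changes of 0.30 to 0.77 over all 11 and a median of 0.62. Hspa13 and the Dnaj genes of the other ER lists below were mixed. Hspa13 (0.43, adjusted p = 0.169), Dnajb12 (0.02, 0.852) and Dnajc18 (-0.17, 0.169) did not pass. Dnajc1 (0.21, 0.0419) and Dnajb14 (0.46, 0.0471) rose. Dnajc1 did not pass when any single library other than control library 16 was left out (adjusted p = 0.0626 to 0.135). Dnajb14 did not pass when any single library was left out (0.0503 to 0.148). These Hspa13 and Dnaj genes were named after their values were seen. Hspa5 encodes BiP, the main Hsp70 of the ER. It had 2758, 2298 and 1998 CPM in knockout libraries 4, 5 and 6, against 1693, 1310.4 and 1610.1 CPM in control libraries 7, 10 and 16, so that the groups did not overlap (log2 fold change 0.61, SE 0.14, adjusted p = 0.0155). Its call was lost without control library 10 (adjusted p = 0.0615), the lowest of the controls. Dnajc10, a J-domain reductase that opens disulfide bonds of proteins bound for degradation, had 256, 269 and 236 CPM in knockout libraries, against 179, 155 and 158 CPM in control libraries (log2 fold change 0.63, SE 0.08, adjusted p = 0.00132). Sdf2l1, a partner of J-domain cochaperones, had 198, 149 and 161 CPM in knockout libraries, against 111, 88.9 and 97.4 CPM in control libraries (log2 fold change 0.77, SE 0.12, adjusted p = 0.00346). Both were higher in every knockout library than in any control library.

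Dnajc3, the J-domain cochaperone also named p58IPK, had 789.7, 714 and 622 CPM in knockout libraries, against 508, 392 and 453 CPM in control libraries (log2 fold change 0.65, SE 0.12, adjusted p = 0.00612). Creld2, an ER protein induced by stress, had 223, 155 and 166 CPM in knockout libraries, against 118, 100.0 and 108 CPM in control libraries (log2 fold change 0.74, SE 0.14, adjusted p = 0.00776). Knockout library 4 was the highest for both, and the groups did not overlap for either. The others that rose were the cochaperone Dnajb11 (log2 fold change 0.62, SE 0.13, adjusted p = 0.0126), the nucleotide exchange factors Hyou1 (0.57, SE 0.14, adjusted p = 0.0176) and Sil1 (0.30, SE 0.08, adjusted p = 0.0213), the ER Hsp90 gene Hsp90b1 (0.37, SE 0.10, adjusted p = 0.0321) and Manf, a stress-induced secreted protein (0.53, SE 0.16, adjusted p = 0.0447). Dnajb9, a cochaperone of BiP, did not pass. It had 648, 534 and 381 CPM in knockout libraries, against 373, 244 and 389 CPM in control libraries (log2 fold change 0.64, SE 0.25, adjusted p = 0.118), so knockout library 6 lay within the control range, and without that library it passed (adjusted p = 0.0399). The calls of Hsp90b1, Hyou1, Sil1 and Manf were lost without control library 10 (adjusted p = 0.105, 0.0707, 0.0844 and 0.0897) and without other libraries as well. Hsp90b1 and Hyou1 also lost it without knockout library 4 (adjusted p = 0.115 and 0.0506) or control library 16 (0.123 and 0.0575), and Hsp90b1 and Sil1 without knockout library 5 (0.0627 and 0.0717). Sil1 lost it without control library 7 (adjusted p = 0.0565), and Manf without any of knockout libraries 4 and 5 and control libraries 7 and 16 (0.0508 to 0.0987).

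The lectin chaperones, which hold glycoproteins during folding, both rose. Calr, encoding calreticulin, had 1700.5, 1556 and 1463 CPM in knockout libraries, against 1045, 959 and 1017 CPM in control libraries (log2 fold change 0.64, SE 0.09, adjusted p = 0.00172). Canx, encoding the membrane lectin calnexin, had 1021, 931 and 841 CPM in knockout libraries, against 675, 662 and 639.5 CPM in control libraries (log2 fold change 0.50, SE 0.09, adjusted p = 0.0059). The distance between the groups exceeded the range within either group for Calr, where the lowest knockout library was at 1463 CPM and the highest control library at 1045 CPM.

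Disulfide enzymes held the largest change of the 41 genes. Ero1lb encodes Ero1β, the oxidase abundant in beta cells that passes oxidising equivalents to protein disulfide isomerases. It had 7157, 7333 and 5364 CPM in knockout libraries, against 2342, 2327 and 2110.0 CPM in control libraries, a 2.93-fold difference (log2 fold change 1.55, SE 0.14, adjusted p = 1.27e-04). The lowest knockout library was at 5364 CPM and the highest control library at 2342 CPM. Its paralog Ero1l, encoding the widely expressed Ero1α, had 65.4, 74.8 and 58.7 CPM in knockout libraries, against 58.9, 59.4 and 53.5 CPM in control libraries, with overlapping groups (log2 fold change 0.21, SE 0.09, adjusted p = 0.141). The difference between the paralogs' changes was not tested.

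In all, 6 of the 9 disulfide enzymes rose, with a median log2 fold change of 0.52 over the 9. Pdia3, the isomerase that works with the lectin chaperones, had 1888, 1788 and 1646 CPM in knockout libraries, against 1299, 1254 and 1167 CPM in control libraries (log2 fold change 0.52, SE 0.09, adjusted p = 0.0048). Pdia6, an isomerase that binds BiP, had 870.1, 797 and 742 CPM in knockout libraries, against 599, 565 and 579.5 CPM in control libraries (log2 fold change 0.47, SE 0.09, adjusted p = 0.00594). P4hb, encoding protein disulfide isomerase itself, had 1639, 1653 and 1435 CPM in knockout libraries, against 1195, 1011 and 1042 CPM in control libraries (log2 fold change 0.54, SE 0.10, adjusted p = 0.00632). The groups did not overlap for any of these 3 isomerases. Pdia4 also rose (log2 fold change 0.71, SE 0.13, adjusted p = 0.00706), as did Txndc11, a thioredoxin-domain protein of glycoprotein degradation (0.56, SE 0.16, adjusted p = 0.047). Txndc11 missed the threshold when knockout library 4 or 5 was left out (adjusted p = 0.117 and 0.12), and likewise for control library 7 or 10 (0.0875 and 0.0724). Pdia5 (log2 fold change 0.41, SE 0.13, adjusted p = 0.0531) and Txndc5 (0.16, SE 0.09, adjusted p = 0.239) did not pass, but Pdia5 passed without knockout library 6 (adjusted p = 0.0124) and by DESeq2 (0.0194).

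**Figure D3:**
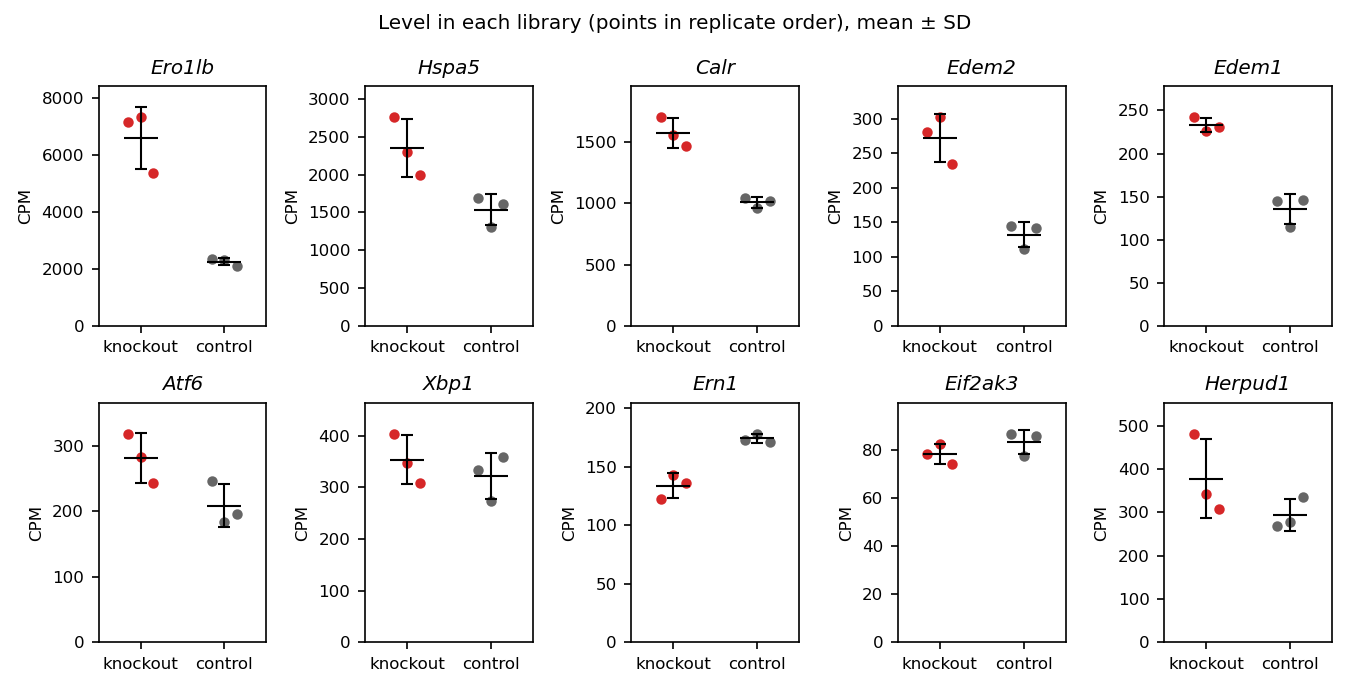
CPM of 10 of the genes in each library (vertical axes, each starting at 0), with knockout libraries left of control libraries and horizontal lines and bars for the group mean and SD (n = 3). For Ero1lb, Calr, Edem2 and Edem1 the groups are far apart, for Hspa5 they are closer, Ern1 is lower in knockout libraries, and Xbp1, Eif2ak3 and Herpud1 overlap.

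Among the 8 stress sensors and effectors, Atf6 rose and Ern1 fell, 6 did not pass, and the median log2 fold change was 0.02. These counts are close to the 11.8% and 12.6% of all genes that rose and fell. Ern1, encoding the sensor and nuclease Ire1α, fell: it had 122, 143 and 136 CPM in knockout libraries, against 173, 178 and 171 CPM in control libraries (log2 fold change -0.38, SE 0.08, adjusted p = 0.00805). Every knockout library was below every control library. Its call held without each single library and was lost with the acinar covariate (log2 fold change -0.25, adjusted p = 0.179). Xbp1, the transcription factor whose mRNA Ire1 splices, had 404, 348 and 309 CPM in knockout libraries, against 333, 274 and 359.9 CPM in control libraries (log2 fold change 0.13, SE 0.13, adjusted p = 0.489). Its groups overlapped, and with the acinar covariate the fold change turned to -0.13.

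Atf6, the sensor that is cleaved in the Golgi, had 318, 282 and 243 CPM in knockout libraries, against 246, 184 and 195 CPM in control libraries (log2 fold change 0.43, SE 0.13, adjusted p = 0.0494). It passed the threshold although knockout library 6 was below control library 7. The call was lost without any of knockout libraries 4 and 5 and control libraries 10 and 16 (adjusted p = 0.116 to 0.151). Eif2ak3, encoding the kinase Perk, had 78.5, 82.6 and 74.1 CPM in knockout libraries, against 86.7, 77.6 and 85.7 CPM in control libraries, with overlapping groups (log2 fold change -0.09, SE 0.07, adjusted p = 0.42). Wfs1, an ER membrane protein mutated in Wolfram syndrome, had 247, 245 and 192 CPM in knockout libraries, against 191, 163 and 189 CPM in control libraries. The lowest knockout library lay just above the highest control library, and the gene did not pass (log2 fold change 0.34, SE 0.11, adjusted p = 0.0594), but it passed without knockout library 6 (adjusted p = 0.0125) and by DESeq2 (0.0165). Ppp1r15a and Ppp1r15b, the inducible and constitutive subunits of the eIF2α phosphatase, had log2 fold changes of -0.20 (SE 0.11, adjusted p = 0.21) and -0.13 (SE 0.07, adjusted p = 0.223), and Atf6b, a relative of Atf6, 0.16 (SE 0.10, adjusted p = 0.288). Without control library 10, Ppp1r15a passed as lower (log2 fold change -0.31, adjusted p = 0.0424).

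Within ER-associated degradation, the genes for glycan trimming and the Hrd1 ligase rose. Of 9 genes 5 rose and 4 did not pass, with a median log2 fold change of 0.39. Edem2, which starts mannose trimming of misfolded glycoproteins, had 280.3, 302 and 234 CPM in knockout libraries, against 144, 111 and 142 CPM in control libraries, a 2.06-fold difference (log2 fold change 1.04, SE 0.13, adjusted p = 0.00105). Edem1, of the same family, had 242, 226 and 231 CPM in knockout libraries, against 145, 115 and 146 CPM in control libraries (log2 fold change 0.78, SE 0.10, adjusted p = 9.32e-04). Edem3, a further member of the family, rose too (0.39, SE 0.10, adjusted p = 0.0212), and its call was lost without knockout library 5 (adjusted p = 0.0638) or control library 10 or 16 (0.0782 and 0.0723). The differences between the 3 Edem genes were not tested.

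Syvn1, encoding the ubiquitin ligase Hrd1, had 237, 209.7 and 202 CPM in knockout libraries, against 147, 114 and 149 CPM in control libraries (log2 fold change 0.66, SE 0.11, adjusted p = 0.00419). Sel1l, the adaptor of Hrd1, had 264, 243 and 234 CPM in knockout libraries, against 296, 245 and 206 CPM in control libraries (log2 fold change -0.01, SE 0.13, adjusted p = 0.951). The ligase gene was thus higher in every knockout library than in any control library, while the control range of its adaptor enclosed all knockout values. Derl1, a channel component of retrotranslocation, had 216, 208 and 185 CPM in knockout libraries, against 146, 130.3 and 155 CPM in control libraries (log2 fold change 0.50, SE 0.09, adjusted p = 0.00502). Its relatives Derl2 (0.06, SE 0.12, adjusted p = 0.735) and Derl3 (0.31, SE 0.23, adjusted p = 0.381) did not pass. Without control library 7, Derl3 passed (log2 fold change 0.61, adjusted p = 0.0215). Herpud1, a scaffold of the Hrd1 complex and a frequently used stress marker with ERSE-II in its promoter, had 481, 343 and 308 CPM in knockout libraries, against 269, 278 and 336 CPM in control libraries (log2 fold change 0.36, SE 0.17, adjusted p = 0.174). Its groups overlapped, and with the acinar covariate the fold change turned to -0.12.

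Both translocon genes rose. Ssr1, a subunit of the translocon-associated protein complex, had 457, 439.8 and 375 CPM in knockout libraries, against 305, 239 and 292 CPM in control libraries (log2 fold change 0.60, SE 0.12, adjusted p = 0.00642). Sec61b, a subunit of the channel through which new proteins enter the ER, had 77.2, 80.2 and 74.9 CPM in knockout libraries, against 65.6, 61.0 and 69.2 CPM in control libraries (log2 fold change 0.25, SE 0.07, adjusted p = 0.0326). The groups did not overlap for either gene. Sec61b missed the threshold when any of knockout libraries 4 and 5 and control libraries 7 and 10 was left out (adjusted p = 0.0664 to 0.12).

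Per kilobase of transcript, the levels of the 41 genes spanned a wide range. Lengths are those of the longest coding transcript in GENCODE M21 and are approximate for these counts. Ero1lb had 1561 ± 257 CPM per kb in knockout libraries (SD, n = 3), the highest of the 41, and 533 ± 30.6 CPM per kb in control libraries (SD, n = 3), where it came after Hsp90b1. Hsp90b1 had 722 ± 63.8 CPM per kb in knockout libraries and 560.5 ± 42.7 CPM per kb in control libraries (SD, n = 3 each), which in controls is within the spread of Ero1lb. Calr, Pdia3, Hspa5 and P4hb followed with means of 551 to 720.4 CPM per kb in knockout libraries and 378 to 461 CPM per kb in control libraries. In knockout libraries the means of Pdia3 (640.4 ± 44.0 CPM per kb) and Hspa5 (640.3 ± 104 CPM per kb) differed by less than their spread (SD, n = 3 each). The lowest in knockout libraries were the sensor and phosphatase genes Ern1, Ppp1r15b, Eif2ak3 and Ppp1r15a together with Ero1l, with means of 13.1 to 19.3 CPM per kb there and 13.0 to 25.1 CPM per kb in control libraries.

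Summed over the 41 genes, the machinery took 2.82%, 2.63% and 2.30% of all counts in knockout libraries 4, 5 and 6, against 1.68%, 1.49% and 1.60% in control libraries 7, 10 and 16. The ratio of the mean CPM sums was 1.63. Without Ero1lb the sums were 2.11%, 1.91% and 1.76% in knockout libraries, against 1.45%, 1.26% and 1.38% in control libraries, a ratio of 1.41. The libraries within a group were not alike. Relative to the control mean, the median log2 difference over the 41 genes was 0.60, 0.51 and 0.32 in knockout libraries 4, 5 and 6, against 0.10, -0.14 and 0.04 in control libraries 7, 10 and 16. Knockout library 4 was the highest of the 6 libraries for 25 of the genes, and control library 10 was the lowest for 29.

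**Figure D4:**
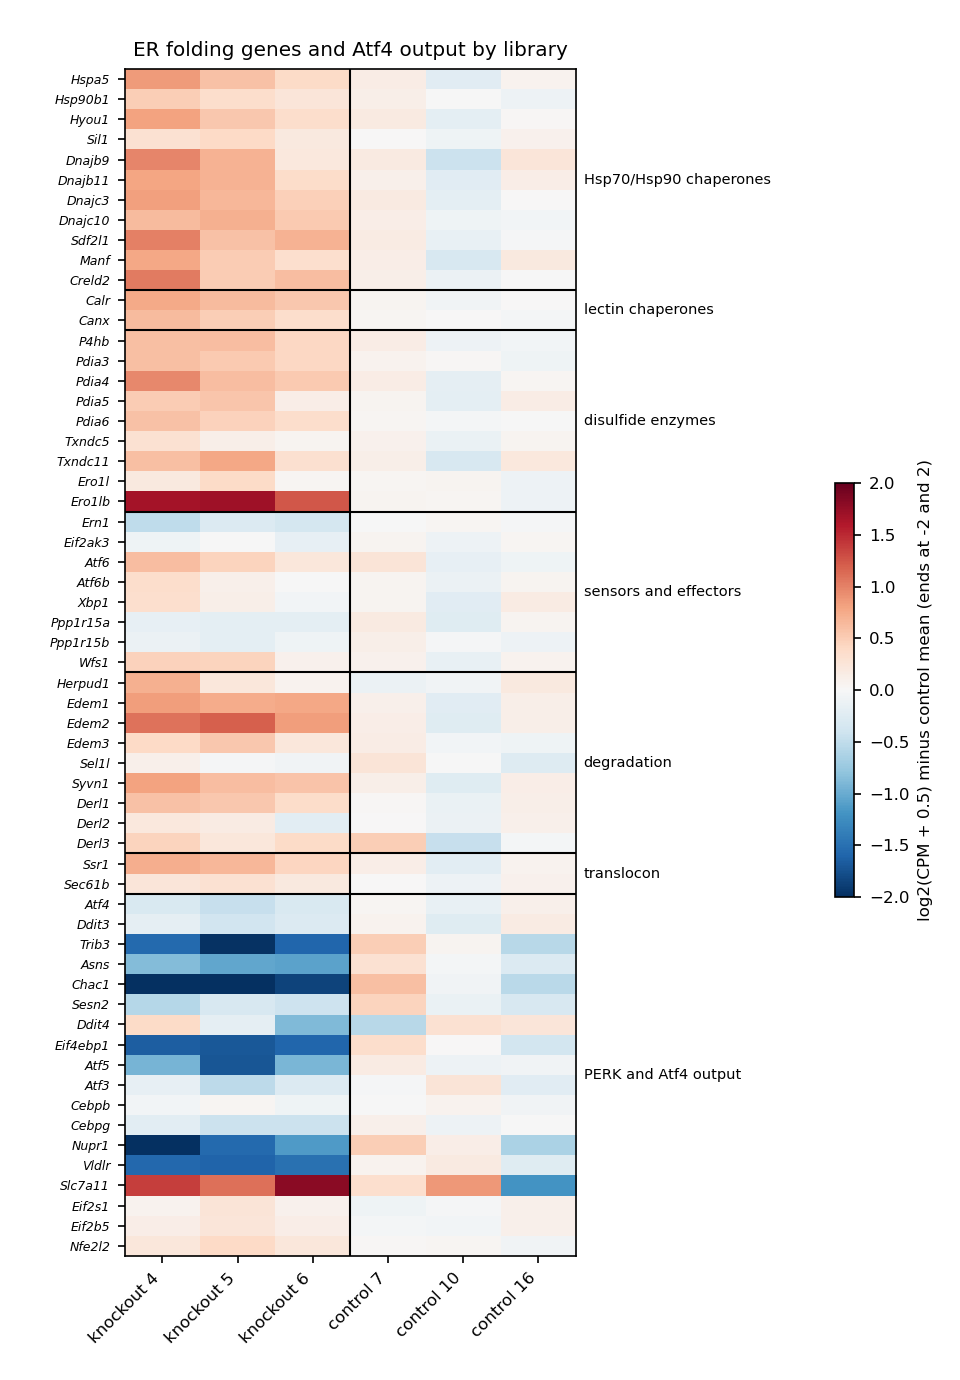
Log2(CPM + 0.5) of each gene minus its mean over the control libraries, with knockout libraries left of control libraries. Rows are the 41 genes by role and the 18 genes of the Perk and Atf4 list. Colours end at -2 and 2. Most chaperone, lectin and disulfide rows are above the control mean in all 3 knockout libraries. The rows of Vldlr, Eif4ebp1, Asns, Trib3 and Chac1 are below it in all 3.

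Acinar cells also have an extensive ER, and acinar markers were lower in the knockout libraries while most of the 41 genes were higher. Knockout library 5 and control library 16 had nearly the same acinar share (1.62% and 1.57%). Between these libraries 36 of the 41 genes (87.8%) were higher in the knockout library, with a median log2 difference of 0.48. Over all genes tested, 47.0% were higher in that knockout library, with a median of -0.03, and over genes at or above the level of the lowest member 58.6% were, with a median of 0.07. The pair has no replicates and was chosen after the marker values were seen, so it tests nothing. In the fit over all 6 libraries with the acinar covariate, 5 of the 26 genes that rose passed. With the leukocyte marker level as a covariate, also added after seeing the data, 26 of the 41 genes rose and 1 fell. These were not all the same genes as without it, because 2 of the 41 lost their call and 2 gained one.

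Other ER genes were taken from 8 lists with 164 tested members, none of them among the 41. In the test 51 rose and 17 fell, 96 missed the threshold, and the median log2 fold change was 0.18. Without control library 10, 25 rose, without knockout library 5, 31 rose, and without knockout library 6, 11 fell. With the acinar covariate 17 rose and 5 fell. The counts by list, beside the 11.8% and 12.6% of all genes that rose and fell, are shown in the plot of called shares.

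**Figure D5:**
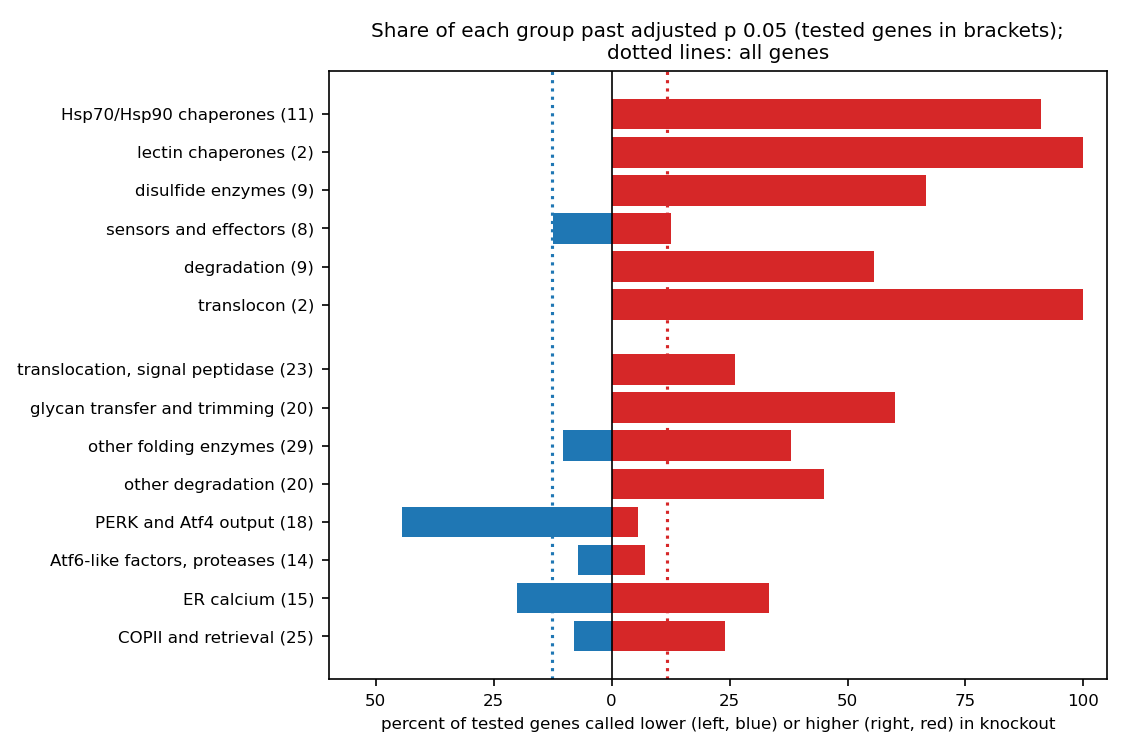
Percent of tested genes that rose or fell in knockout islets (horizontal axis) for the 6 roles of the 41 genes and the 8 lists of other ER genes, with dotted lines at the shares of all genes (11.8% higher and 12.6% lower). The sensors lie close to both lines, the other 5 roles and 6 of the 8 lists reach past the line for higher, and the Perk and Atf4 output and calcium lists reach past the line for lower.

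Of 20 glycan transfer and trimming genes 12 rose and 8 did not pass, with a median log2 fold change of 0.35. They included the oligosaccharyltransferase subunits Rpn1 (0.68, SE 0.10, adjusted p = 0.00165), Rpn2 (0.60, SE 0.09, adjusted p = 0.00284) and Dad1 (0.47, SE 0.08, adjusted p = 0.00385), and the glucosidase II subunit Prkcsh (0.47, SE 0.07, adjusted p = 0.00244). Rpn1 had 617, 574 and 524 CPM in knockout libraries, against 379, 324 and 367 CPM in control libraries. Of 23 translocation and signal peptidase genes 6 rose, with a median of 0.25, led by the signal peptidase subunit Sec11c at 129, 132 and 127 CPM in knockout libraries, against 84.7, 71.3 and 79.2 CPM in control libraries (0.72, SE 0.08, adjusted p = 3.16e-04). Ssr4, Tram1 and Sec63, which act at or beside the Sec61 channel, had log2 fold changes of 0.43, 0.37 and 0.34 and passed. Without control library 10, Tram1 and Sec63 did not (adjusted p = 0.053 and 0.104), nor did Sec63 without knockout library 4 or 5 or control library 16 (0.0751 to 0.0823). The number of glycan genes that rose was 5 without control library 10, 6 without control library 16, 7 without knockout library 4 or 5 and 3 with the acinar covariate. For translocation genes it was 2 without control library 10, 3 without knockout library 4 or 5 and 1 with the acinar covariate.

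Among 29 other folding enzymes 11 rose and 3 fell, and the median log2 fold change was 0.21. The proline isomerases Fkbp2 (0.68, SE 0.07, adjusted p = 2.46e-04) and Ppib (0.68, SE 0.10, adjusted p = 0.00172), the ER protein Erp29 (0.75, SE 0.10, adjusted p = 0.00157) and the thioredoxin-related Tmx2 (0.49, SE 0.08, adjusted p = 0.00297) had the smallest p. The 3 that fell were the peroxiredoxin Prdx4 (-0.47), Fkbp9 (-0.39) and Ppic (-0.54), named after their values were seen. Fkbp9 and Ppic did not pass without knockout library 4 (adjusted p = 0.0589 and 0.115), knockout library 6 (0.0681 and 0.0941) or control library 16 (0.0546 and 0.103), nor Ppic without control library 10 (0.109). Pdia2, a disulfide isomerase of acinar cells, had 19.0, 54.3 and 39.3 CPM in knockout libraries, against 180.1, 154 and 59.6 CPM in control libraries, and did not pass (-1.81, adjusted p = 0.0986) except without control library 16 (0.0377). It was singled out after its values were seen. Of 20 other degradation genes 9 rose, with a median of 0.19, among them the lectin Erlec1 (0.38), the ubiquitin-conjugating enzyme Ube2j1 (0.46), the extraction ATPase Vcp (0.39) and its cofactor Ufd1l (0.30). With the acinar covariate 4 folding enzymes and 1 degradation gene rose, and without control library 10 or knockout library 5, 2 and 5 degradation genes rose. Vcp and Ufd1l did not pass without control library 10 (adjusted p = 0.0549 and 0.0619).

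Several genes of the Perk and Atf4 output list fell, and the activity of Perk was not measured. The list had 18 genes, of which 8 fell and 1 rose, and its median log2 fold change was -0.40. Not all of them are output genes. Atf4 itself is counted among those that fell, and Nfe2l2 is the 1 that rose. Eif2s1 and Eif2b5, for subunits of eIF2 and its exchange factor, did not pass. Vldlr, a lipoprotein receptor that Atf4 induces, had 25.9, 25.3 and 27.2 CPM in knockout libraries, against 81.7, 87.7 and 65.6 CPM in control libraries (log2 fold change -1.59, SE 0.11, adjusted p = 4.30e-05). Eif4ebp1, an inhibitor of translation initiation, had 5.34, 5.16 and 5.62 CPM in knockout libraries, against 22.8, 18.0 and 13.8 CPM in control libraries (log2 fold change -1.76, SE 0.19, adjusted p = 3.45e-04). Every knockout library was below every control library for both. Asns, encoding asparagine synthetase, had 68.4, 60.9 and 59.9 CPM in knockout libraries, against 155, 123 and 104 CPM in control libraries (log2 fold change -1.01, SE 0.14, adjusted p = 0.00228). Trib3, a pseudokinase, had 2.21, 1.54 and 2.17 CPM in knockout libraries, against 10.8, 7.85 and 4.94 CPM in control libraries (log2 fold change -2.00, SE 0.31, adjusted p = 0.00265). Control library 16, which had the least acinar RNA of the controls, was the lowest control for these 4 genes, and their groups did not overlap. Among the other genes of the list that fell, it was also the lowest control for Chac1. Control library 10 was instead the lowest control for Atf4, Atf5 and Cebpg. A link to acinar RNA was not tested on these values. With the acinar covariate Asns (log2 fold change -0.80, adjusted p = 0.0815) and Trib3 (-1.42, adjusted p = 0.111) did not pass.

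Further genes of that list were named after their values were seen. Chac1, which degrades glutathione, had 6.45, 5.70 and 8.11 CPM in knockout libraries, against 46.8, 29.3 and 20.9 CPM in control libraries (log2 fold change -2.27, SE 0.33, adjusted p = 0.00516). Atf4 itself had 225, 202 and 224 CPM in knockout libraries, against 287, 251 and 298 CPM in control libraries (log2 fold change -0.36, SE 0.09, adjusted p = 0.019), again with no overlap. Atf5 (-1.15) and Cebpg (-0.35) fell as well, and Nfe2l2, encoding the redox factor Nrf2, rose (0.29, SE 0.07, adjusted p = 0.0218). Ddit3, encoding the stress factor Chop, had a log2 fold change of -0.29 and did not pass (adjusted p = 0.122), but passed as lower without control library 10 (0.0433). Nupr1, a stress-induced nuclear protein, had 12.6, 25.2 and 33.8 CPM in knockout libraries, against 106, 81.8 and 48.1 CPM in control libraries, and did not pass (-1.73, adjusted p = 0.0622) except without control library 16 (0.041). Slc7a11, a cystine transporter, had 7.06, 5.70 and 9.56 CPM in knockout libraries, against 3.15, 4.76 and 0.755 CPM in control libraries, and did not pass either (1.33, adjusted p = 0.133). With the acinar covariate Vldlr, Eif4ebp1 and Atf4 fell, and leaving out single libraries gave 6 to 9 genes that fell. Atf4 did not pass without knockout library 5 or control library 7 or 16 (adjusted p = 0.0621 to 0.0638). Cebpg did not pass without knockout library 5 or 6 or control library 7 (0.0526 to 0.0601), nor Nfe2l2 without knockout library 5 or any single control library (0.0517 to 0.0719).

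The remaining lists changed in both directions or seldom. Of 15 ER calcium genes 5 rose and 3 fell. Rcn2, a calcium-binding protein, had 126, 124 and 111 CPM in knockout libraries, against 66.0, 63.0 and 67.1 CPM in control libraries (log2 fold change 0.88, SE 0.07, adjusted p = 8.44e-05). The calcium release channel gene Itpr2 had 22.8, 28.9 and 29.8 CPM in knockout libraries, against 13.4, 13.6 and 10.4 CPM in control libraries (log2 fold change 1.12, SE 0.14, adjusted p = 9.58e-04). Both were separated between the groups. Tmco1 (0.44), Stim1 (0.58) and Itpr1 (0.45) also rose, while Itpr3 (-0.75), the calcium pump gene Atp2a3 (-0.39) and Rcn1 (-0.35) fell; Itpr1 and those that fell were named after their values were seen. Atp2a3 did not pass without any of knockout libraries 4 and 6 and control libraries 7 and 10 (adjusted p = 0.0639 to 0.0929), nor Rcn1 without any single library other than knockout library 4 (0.057 to 0.117). With the acinar covariate the 5 that rose passed and the 3 that fell did not.

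Among 25 genes of vesicle export and retrieval 6 rose and 2 fell. Mcfd2, part of a cargo receptor for export from the ER, had 261, 263 and 225 CPM in knockout libraries, against 113, 87.4 and 112 CPM in control libraries (log2 fold change 1.26, SE 0.11, adjusted p = 1.55e-04). The p24 family gene Tmed3 rose (0.60), and the retrieval receptor Kdelr3 (-0.73) and Sec16b, a scaffold of ER exit sites (-0.58), fell. The number of genes of this list that rose was 2 without control library 10 or 16 or knockout library 5. Of 14 genes for Atf6-like factors and their proteases and partners, Tmbim6, a membrane protein of the ER, rose (0.45, SE 0.07, adjusted p = 0.00307), the transcription factor gene Creb3l1 fell (-0.57, SE 0.13, adjusted p = 0.0137) and 12 did not pass. Without knockout library 6, Creb3l1 did not pass (adjusted p = 0.0519), and with the acinar covariate neither gene did, while 2 export and retrieval genes rose and 1 fell.

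In the authors' deposited table, 24 of the 41 genes were higher and 1 lower in knockout islets at an adjusted p under 0.05. In the authors' deposited table as a whole, 6.66% of 19440 genes with a p-value were higher and 6.19% lower. The sign of the fold change in the authors' deposited table was the same as here for 40 of the 41 genes.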

How the data were processed

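For each of the 6 libraries the authors deposited a table of gene counts as whole numbers. The authors' deposited comparison table holds the mean signal of each group (counts divided by size factors), the ratio (fold) between groups on a linear and a log2 scale, and raw and adjusted p-values. The build was mm9, and the tools named were Cufflinks 2.0.2, TopHat2 2.1.0, bcl2fastq 1.8.4 and DESeq, per the submitters' processing notes. For the read counter, annotation and strand setting, nothing is given in the sources used here. Overlapping and antisense genes therefore cannot be told apart.

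Groups were taken from the sample titles. Replicates differed beyond counting noise (chi-square over degrees of freedom 16.5 to 43.1), so none was merged. The fit used edgeR 4.0.16 under R 4.3.3 after filterByExpr (minimum count 10, minimum total 15), leaving 14770 of 23284. Groups were compared by the robust quasi-likelihood F test with TMM factors (0.9881 to 1.021) and Benjamini-Hochberg adjustment over all genes tested at 0.05. All adjusted p-values come from it unless another tool is named, and standard errors were derived from its F values. The biological coefficient of variation was 14.2%. The script was tested on simulated data.

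The members and lists were chosen with earlier results of these data known. Members that passed are given with their statistics, and library values are printed for up to 4 members of each role with the smallest p, for Hspa5, Xbp1, Atf6, Ern1, Eif2ak3 and Wfs1, and for up to 4 genes of each other list; others printed (Ero1l, Dnajb9, Sel1l and Herpud1 among them) were chosen after their values were seen. Of 168 other ER genes, Vimp and Selt were not matched by symbol and Srp54b and Mia3 had too few counts. Alternatives were DESeq2 1.42.0, its size factors in edgeR, upper-quartile factors, limma-voom (limma 3.58.1), no filter, no robust estimation, covariates for acinar or leukocyte markers, and leaving out each library.

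Promoters are from RefSeq (GRCm38.p6), strand of the gene, matched by symbol (Ero1l and Ero1lb as Ero1a and Ero1b). Coordinates are of that build and not of mm9.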

Additional observations from a re-analysis of the deposited data

How the results depend on the processing

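No paired analysis was possible because the groups share no replicate number. The acinar marker level as a covariate changed most counts: 5 of the 41 genes were higher and 0 lower, over all genes 848 were higher and 701 lower, and among the other ER genes 17 were higher and 5 lower. Leaving out 1 library at a time gave 17 to 29 of the 41 genes higher and 1 to 2 lower, with a median log2 fold change of 0.42 to 0.58. Over all genes it gave 1153 to 1590 higher and 1225 to 1433 lower, over the other ER genes 25 to 58 higher and 11 to 15 lower, and for Neurod1 a log2 fold change of -2.66 to -2.41. Of the 26 genes that rose, 5 (Dnajc10, Edem1, Edem2, Calr and Ero1lb) passed under all 14 alternatives, and none reversed. Of the others, 9 lost the call without at least 1 library and also with the acinar covariate, and 12 lost it with that covariate alone. Ern1 lost it with the acinar covariate alone. Genes that did not pass changed sign: with the acinar covariate Atf6b was at -0.03, Derl2 at -0.09, Herpud1 at -0.12, Xbp1 at -0.13 and Sel1l at 0.20. Sel1l was at 0.00 with DESeq2 size factors, DESeq2 and limma-voom, 0.02 without the filter, 0.04 without knockout library 6 and 0.14 without control library 7. The cause was not tested. Higher members numbered 28 by DESeq2, 27 with its size factors or no filter, 26 by limma-voom or with the leukocyte covariate (chosen after seeing the data), and 24 with upper-quartile factors or no robust estimation. With upper-quartile factors, 1570 of all genes were higher and 2095 lower, against 1736 and 1864. With 3 libraries a group, single genes with changes near their standard error cannot be resolved at this depth.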
